A study of Ictidomys tridecemlineatus with 31 samples.

Results

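The genes described here are feedback inhibitors of the MAP kinase pathway, with Etv1, a transcription factor that signalling through that pathway can induce. They were taken by symbol, case ignored, from a list of 10 genes: the dual-specificity phosphatases Dusp1, Dusp4, Dusp5, and Dusp6, the Sprouty proteins Spry1, Spry2, and Spry4, the Spred proteins Spred1 and Spred2, and Etv1. Of these, 9 were in the kidney table of 12863 genes, each once, and Dusp4 was not in it. The set was chosen by a measured value as well as by function, because Dusp6 had been among the genes with the lowest q values across the states in earlier results of these data. Its levels and differences between states are therefore a description, and nothing further is read from the number of genes in the set that differed across the states.

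Growth factors bind receptor tyrosine kinases at the cell surface and act through Ras, Raf, and MEK to switch on the kinase ERK, which phosphorylates transcription factors and so induces a first wave of genes. Several of those induced genes turn the pathway down again. Many dual-specificity phosphatases (DUSPs), among them those of the set, remove the activating phosphates from MAP kinases. Sprouty and Spred proteins act upstream, between the receptors and Raf. In the kidney this pathway is best known for its part in ureteric bud branching and in the response of tubules to injury.

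RNA was measured in kidneys of 31 ground squirrels, Ictidomys tridecemlineatus, 17 female and 14 male, each animal giving 1 kidney sample in 1 of 6 states. Of the states outside the season of torpor, summer active (SA, n = 5) animals were at high body temperature and fattening, and spring dark (SpD, n = 5) animals were still housed in the dark but had stopped using torpor. The other states belong to the torpor-arousal cycle of winter: entrance (Ent, n = 5), with body temperature falling, early arousal (EAr, n = 5), just leaving torpor and still cold, late arousal (LAr, n = 6), partly rewarmed, and interbout arousal (IBA, n = 5), shortly after return to high body temperature. All animals were captive, untreated apart from implanted temperature devices, and perfused before dissection, and a whole piece of kidney was extracted, so that fewer cells of a type and less RNA per cell cannot be told apart in any result given here.

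Values are the authors' regularized log (rlog) values on the log2 scale, from which they had removed a batch effect, so that a difference of 1 is a 2-fold difference. The table gives no counts, so the depth behind a value is unknown and its error is the spread between animals. Levels are given per gene and are not per unit of transcript length, so they are compared between states and not between genes. Experiment 1 (9 animals, 3 each of IBA, Ent, and SpD) and experiment 2 (22 animals) used different library kits, and SA, EAr, and LAr came from experiment 2 alone. Animals K113 (LAr) and K137 (SA) were outliers in the authors' clustering of samples and were left out of their test of differential expression. The paper describes both as extremes of apparent cell type variation in their groups, and proposes that they were ahead of their groups in the change of state. That timing was not tested here. Both animals are shown apart, and how they depart from their groups is described below. State means, tests, and statements on the overlap of groups use the other 29 animals (SA n = 4, all other states n = 5). A difference between 2 states is the coefficient of a limma model with state, sex, and experiment as terms, first state minus second, with its standard error (SE). It can depart from the difference of the printed means, which the term for experiment does not adjust. The q value is Benjamini-Hochberg adjusted over all 12863 genes, and a gene is called at q under 0.001. Of the markers checked, 6 of 6 for proximal tubule, 2 of 2 for thick ascending limb, 3 of 3 for principal cells, and 4 of 4 for inner medulla were in the table, and 0 of 4 for the adrenal gland, which was collected from the same animals.

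Across the 6 states, 3 of the 9 genes were called, Dusp6, Dusp1, and Etv1, beside 9.34% of all genes. At q under 0.05 there were 6, with Spred1, Spry1, and Dusp5 added, beside 46.1% of all genes. The state means of Dusp6 spanned 2.14 on the log2 scale (4.42-fold), those of Dusp1 spanned 1.46 (2.75-fold), and those of Etv1 spanned 1.06 (2.08-fold). The spans of the other 6 genes lay between 0.20 for Spred2 and 0.83 for Dusp5. By state mean the 3 genes had 3 different orders of states. Dusp6 was highest in SA and lowest in EAr, and Etv1 was highest in SA and lowest in SpD. Dusp1 was highest in LAr, and its means in EAr (9.58), SA (9.61), and Ent (9.61) were lowest and close together. With experiment in the model, Dusp1 in EAr differed from Ent by 0.16 (SE 0.25, q = 0.88). With K113 and K137 included, 2 genes were called across the states, beside 5.58% of all genes, and Etv1 was not (q = 0.00567).

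**Figure D1:**
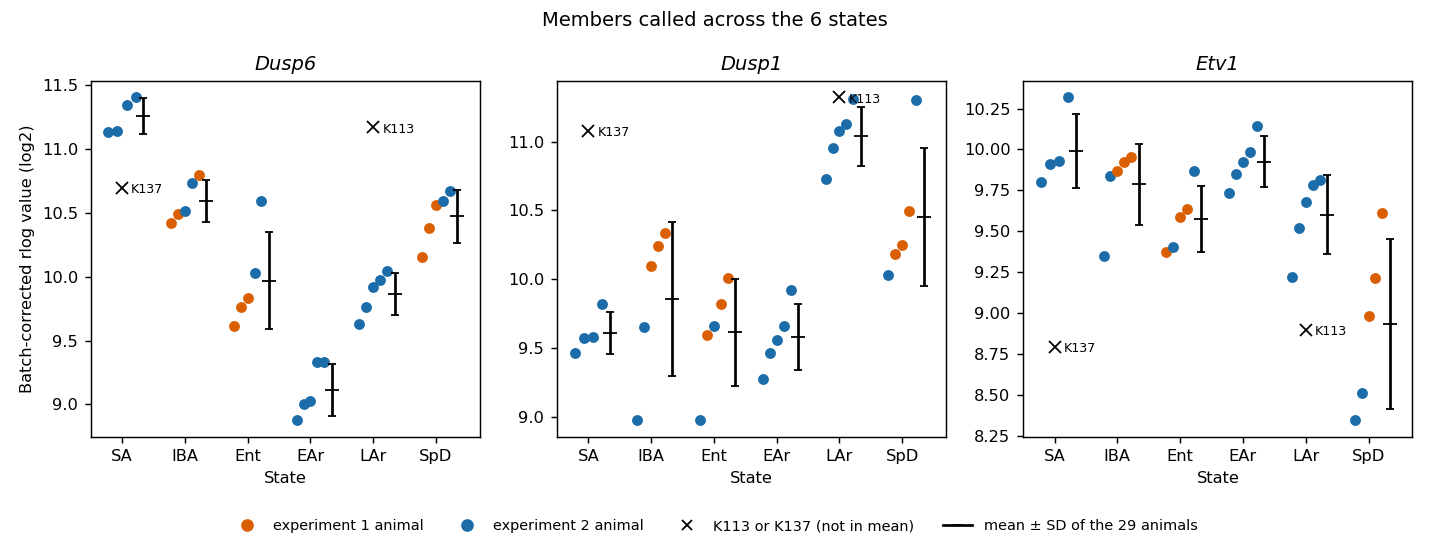
Batch-corrected rlog value (log2) of Dusp6, Dusp1, and Etv1 in each animal by state, with experiment 1 in orange and experiment 2 in blue, K113 and K137 as crosses outside the means, and the mean ± SD of the 29 animals beside each group. The 5 EAr animals lie lowest for Dusp6, the 5 LAr animals lie at or above 10.73 for Dusp1, and the SpD animals spread from 8.35 to 9.61 for Etv1.

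Dusp6, also known as MKP-3, is a cytoplasmic phosphatase selective for ERK and a widely used readout of ERK activity. Its rlog values were 11.13, 11.14, 11.35, and 11.41 in the SA animals, 10.42, 10.49, 10.52, 10.74, and 10.80 in IBA, and 10.16, 10.38, 10.56, 10.60, and 10.67 in SpD. In the cooling and cold states they were 9.62, 9.77, 9.83, 10.03, and 10.60 in Ent, 8.87, 9.0, 9.03, 9.33, and 9.33 in EAr, and 9.63, 9.76, 9.92, 9.97, and 10.04 in LAr. Every SA animal was above, and every EAr animal below, all animals of the other states among the 29. By mean and SD the order was SA (11.26 ± 0.14), IBA (10.59 ± 0.16), SpD (10.47 ± 0.21), Ent (9.97 ± 0.38), LAr (9.87 ± 0.17), and EAr (9.11 ± 0.21). Neighbours in that order overlapped in range except SA with IBA and LAr with EAr, and the fitted difference between SpD and IBA was -0.12 (SE 0.12, q = 0.581).

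Around the torpor-arousal cycle the Dusp6 mean was lower at each step from IBA through Ent to EAr and higher at each step from EAr through LAr to IBA, and all of these steps but the first were called. From IBA to Ent the fitted difference was -0.62 (SE 0.12, 1.54-fold), which did not reach the threshold (q = 0.00231), and the groups overlapped through Ent animal 167 at 10.60. Without that animal it was -0.75 (q = 0.000495). Within experiment 1 the difference of means was -0.83 (3 against 3 animals) and within experiment 2 it was -0.31 (2 against 2). From Ent to EAr Dusp6 fell by 1.05 (SE 0.14, 2.07-fold, q = 0.000104), and the groups did not overlap. This call was lost without Ent animal 167 (-0.84, q = 0.00353), with no term for experiment (-0.86, q = 0.00397), in experiment 2 alone (-1.21, q = 0.0015), and with K113 and K137 included (-1.08, q = 0.0192). Dusp6 was the 1 gene of the 9 called from Ent to EAr, beside 0.132% of all genes, and the 1 gene of the 9 whose groups did not overlap, beside 1.2%.

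From EAr to LAr Dusp6 rose by 0.76 (SE 0.12, 1.70-fold, q = 0.000699), with no overlap between the groups, and from LAr to IBA it rose by a further 0.91 (SE 0.14, 1.88-fold, q = 0.000114), again with no overlap. The rise from EAr to LAr lost its call when any 1 of 16 animals was left out (LAr animals 111, 112, 115, and 116, EAr animals 156, 158, and 165, IBA animals 171, 69, and 70, SA animals 140 and 141, Ent animals 155 and 64, or SpD animals 84 and 77), with differences of 0.71 to 0.78 and q values of 0.00102 to 0.0059. The rise from LAr to IBA kept its call without any single animal and lost it with K113 and K137 included (0.72, q = 0.0299), with no term for experiment (0.73, q = 0.00261), and in experiment 2 alone (0.81, q = 0.00612). Outside the cycle, Dusp6 was 0.59 higher in SA than in SpD (SE 0.14, q = 0.0143) and 0.48 lower in IBA than in SA (coefficient -0.48, SE 0.14, q = 0.0202). Neither passed the threshold, although the groups did not overlap in either pair.

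Dusp1, also known as MKP-1, is a nuclear phosphatase that acts on p38, JNK, and ERK and is itself an immediate early gene. Its rlog values were 10.73, 10.95, 11.08, 11.13, and 11.31 in the LAr animals and 9.28, 9.46, 9.56, 9.66, and 9.92 in the EAr animals. In IBA they were 8.97, 9.65, 10.10, 10.24, and 10.33, and in Ent 8.98, 9.60, 9.66, 9.82, and 10.01. In SA they were 9.46, 9.57, 9.58, and 9.82, and in SpD 10.03, 10.18, 10.25, 10.50, and 11.30. The LAr animals stood above all others of the 29 except 1 SpD animal, K130 at 11.30, and the IBA, Ent, SA, and EAr animals overlapped one another. The order of means was LAr (11.04 ± 0.21), SpD (10.45 ± 0.50), IBA (9.86 ± 0.56), Ent (9.61 ± 0.39), SA (9.61 ± 0.15), and EAr (9.58 ± 0.24), and each neighbouring pair overlapped in range.

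From EAr to LAr Dusp1 rose by 1.47 (SE 0.22, 2.77-fold, q = 0.000321), and from LAr to IBA it fell by 1.39 (SE 0.25, 2.61-fold, q = 0.000743). The groups did not overlap in either step, and the across-state q value was 4.47e-05. The rise was not called in experiment 2 alone (1.45, q = 0.00171), with K113 and K137 included (1.51, q = 0.00154), or without any 1 of 8 animals (LAr animals 111, 112, 115, and 116 and EAr animals 154, 157, 158, and 165), where it was 1.39 to 1.504 (q = 0.00111 to 0.00181). The fall was not called without any 1 of 18 animals (IBA animals 104, 171, 69, and 70, LAr animals 111, 112, 115, and 116, SA animals 138, 140, and 141, EAr animals 154, 157, and 165, Ent animals 167 and 62, or SpD animals 84 and 77), where it lay between -1.43 and -1.10 with q values of 0.00102 to 0.00409. It was also not called with K113 and K137 included (-1.44, q = 0.00337), with no term for experiment (-1.18, q = 0.0028), or in experiment 2 alone (-1.76, q = 0.0024). In all 36 alternatives to the fit, both differences kept their direction and a q value under 0.01.

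In SpD, Dusp1 rested in part on K130. All SA animals were below all SpD animals, and the fitted difference of SA from SpD was -0.64 (SE 0.26, q = 0.106), and without K130 it was -0.13 (q = 0.746). SpD exceeded IBA by 0.59 (SE 0.22, q = 0.0806), or by 0.27 without K130 (q = 0.28). Within experiment 1 the means of SpD and IBA differed by 0.09 and within experiment 2 by 1.35.

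Dusp5 is a nuclear phosphatase selective for ERK. It was lowest in EAr (7.94 ± 0.11, range 7.76 to 8.04) and Ent (8.14 ± 0.26), intermediate in LAr (8.47 ± 0.21), and highest in IBA (8.64 ± 0.46), SpD (8.77 ± 0.37), and SA (8.77 ± 0.55). All neighbours in that order overlapped. The 5 LAr animals (8.16 to 8.70) were above all 5 EAr animals, with a fitted difference of 0.54 (SE 0.22, q = 0.504), and Ent differed from IBA by -0.50 (SE 0.22, q = 0.125). No pair of states was called for Dusp5, and its across-state q value was 0.0122.

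The Sprouty proteins bind adaptors and Raf and dampen signalling from receptor tyrosine kinases. None of the 3 was called across the states (q = 0.00664 for Spry1, 0.157 for Spry2, and 0.0726 for Spry4) or in any pair. Spry1 was highest in LAr (9.20 ± 0.15) and IBA (9.17 ± 0.39) and lowest in SpD (8.63 ± 0.30). Its largest fitted difference between successive states was that of SpD from IBA, -0.54 (SE 0.14, q = 0.0142), which was -0.58 within experiment 1 and -0.49 within experiment 2. Spry2 lay between 9.27 ± 0.25 in SpD and 9.60 ± 0.13 in LAr, and its largest fitted difference was 0.34 from EAr to LAr (SE 0.14, q = 0.492). Spry4 was highest in SA (9.03 ± 0.18) and SpD (8.98 ± 0.28) and lowest in EAr (8.60 ± 0.12) and Ent (8.55 ± 0.27). In Ent, Spry4 differed from IBA by -0.76 within experiment 1 and by 0.38 within experiment 2, so that its direction was not the same in both. IBA animals had the widest spread of the 6 states for Spry1, Spry2, and Spry4, with SDs of 0.39, 0.31, and 0.48.

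The Spred proteins are membrane-bound relatives of the Sproutys that bring the Ras inhibitor neurofibromin to Ras. Spred1 had its highest values in SA (9.70, 9.84, 9.95, and 9.999) and its lowest in SpD (9.25, 9.32, 9.35, 9.35, and 9.69). SA and SpD did not overlap, although SpD animal 77, at 9.69, lay close to the lowest SA animal and apart from the other 4 of its group. The fitted difference was 0.52 (SE 0.10, 1.44-fold, q = 0.00488), short of the threshold, and the across-state q value was 0.0027. Without SpD animal 77 Spred1 was called across the states (q = 0.000986). From EAr (9.75 ± 0.07) to LAr (9.54 ± 0.08) Spred1 went the opposite way from Dusp1, Dusp5, and Dusp6, with groups that did not overlap and a fitted difference of -0.20 (SE 0.09, q = 0.547). Spred2 was the flattest of the 9 genes, with state means between 10.69 ± 0.21 in SpD and 10.89 ± 0.09 in EAr and an across-state q value of 0.548.

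**Figure D2:**
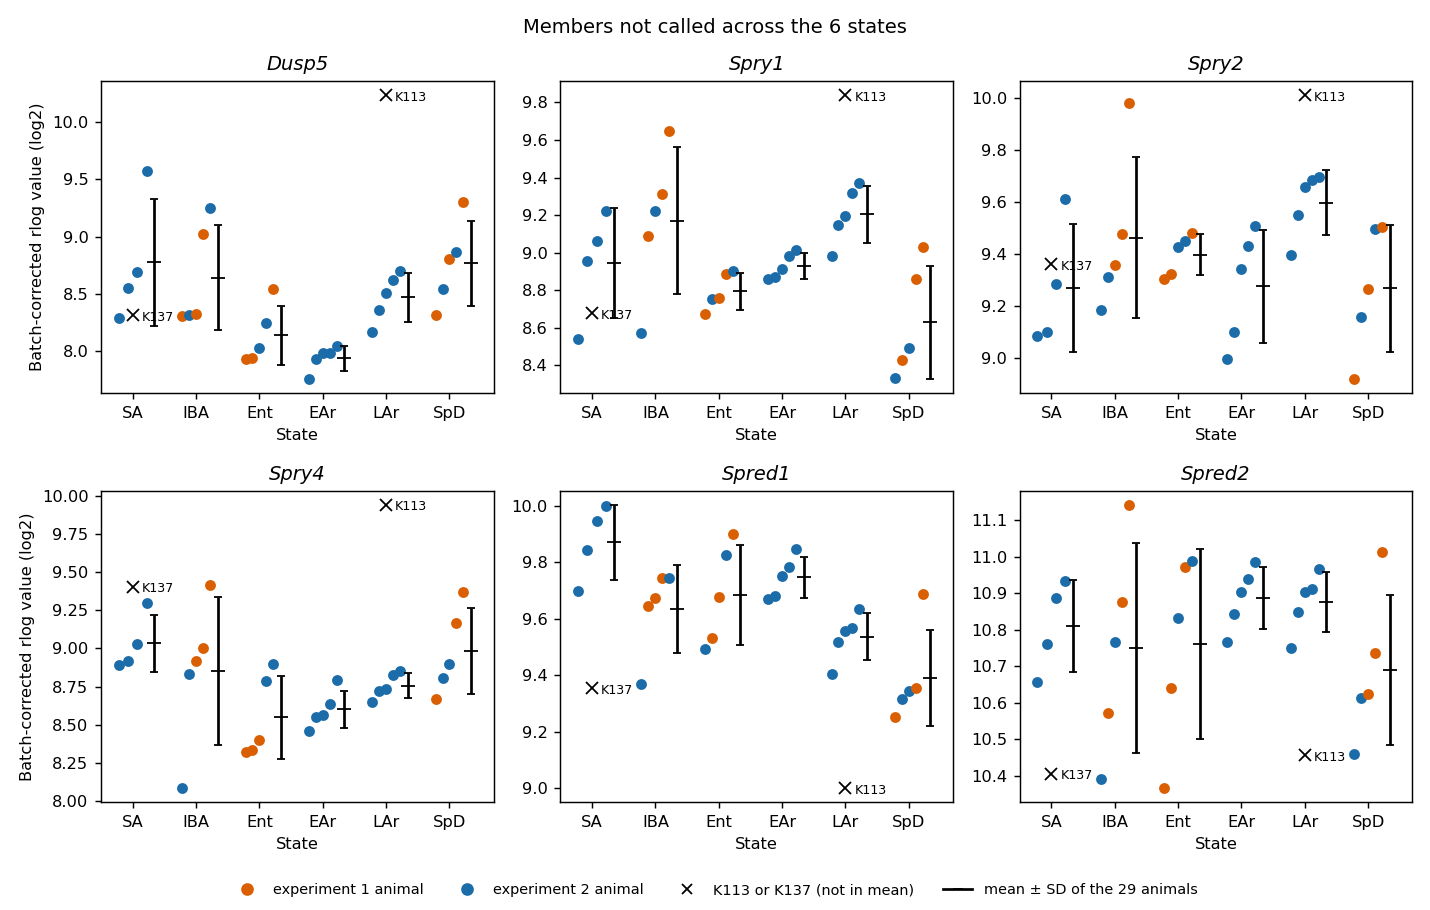
Batch-corrected rlog value (log2) of the 6 genes not called across the states, in each animal by state, with experiment 1 in orange, experiment 2 in blue, K113 and K137 as crosses outside the means, and the mean ± SD of the 29 animals. For Dusp5 the 5 EAr animals lie between 7.76 and 8.04, below the 5 LAr animals, and K113 at 10.23 lies above every other animal.

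Etv1 is an ETS family transcription factor that ERK phosphorylates and that growth factor signalling induces, and it stands here as an output of the pathway, not as an inhibitor. Its rlog values were 9.8, 9.91, 9.93, and 10.32 in SA and 8.35, 8.51, 8.98, 9.22, and 9.61 in SpD. In IBA they were 9.35, 9.84, 9.87, 9.92, and 9.96. All SA animals were above all SpD animals, while SpD and IBA overlapped through SpD animal 77 at 9.61 and IBA animal 104 at 9.35. The other means were 9.93 ± 0.15 in EAr, 9.60 ± 0.24 in LAr, and 9.57 ± 0.20 in Ent, and neighbours in the order of the 6 states overlapped throughout.

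Etv1 was 1.24 higher in SA than in SpD (SE 0.17, 2.36-fold, q = 0.000578), and it was the 1 gene of the 9 called in that pair, beside 0.0544% of all genes. SpD was 0.85 lower than IBA (coefficient -0.85, SE 0.15, 1.81-fold, q = 0.000642), and Etv1 was again the 1 gene called, beside 1.25% of all genes. Within experiment 1 the means of SpD and IBA differed by -0.65 and within experiment 2 by -1.16. Without K130 the difference of SA from SpD was 0.99 (q = 0.0126) and that of SpD from IBA was -0.69 (q = 0.00152), neither of them called. The first was also not called without IBA animal 104, LAr animal 109, SA animal 138, 139, 140, or 141, EAr animal 154 or 157, or SpD animal 83 or 84 (1.16 to 1.29, q = 0.00101 to 0.00313), with no term for experiment (1.03, q = 0.00287), with animal weights (1.02, q = 0.0295), or with K113 and K137 included (1.02, q = 0.0363). The second was not called without IBA animal 75, 104, 171, 69, or 70 or SpD animal 80, 83, or 84 (-0.91 to -0.76, q = 0.0011 to 0.00263), with no term for experiment (-0.85, q = 0.00151), in experiment 2 alone (-1.27, q = 0.00268), or with K113 and K137 included (-0.85, q = 0.0127).

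Markers of kidney regions moved with Etv1. Over the 29 animals its Pearson r was -0.55 with the mean level of 4 inner medulla markers, -0.68 with that of the thick ascending limb, and -0.63 with that of principal cells, and 0.49 with that of 6 proximal tubule markers, given as a description over animals that share states and libraries. Within states, that is, after each state mean was subtracted, the values were -0.73, -0.73, -0.49, and 0.70. The mean inner medulla level was 11.54 ± 0.78 (10.70 to 12.72) in SpD, 11.22 ± 0.97 (10.05 to 12.70) in IBA, and 10.96 ± 0.67 (10.08 to 11.71) in SA. The lowest Etv1 values of SpD and IBA were those of K130 and of IBA animal 104, which had the highest inner medulla levels of their groups, at 12.72 and 12.70. Over the 9 marker lists in the table, r of Etv1 lay between -0.68 for the thick ascending limb and 0.57 for macrophages and leukocytes. Dusp6 had r of 0.22 with the inner medulla level (-0.10 within states), 0.49 with intercalated cells (0.12 within states), 0.48 with endothelium (0.42 within states), and 0.46 with smooth muscle and fibroblasts (0.43 within states), and its r with the other lists lay between -0.21 and 0.38. Dusp1 had r between -0.31 for proximal tubule and 0.27 for the thick ascending limb and, within states, between -0.49 for the distal convoluted tubule and 0.52 for inner medulla. The part of tissue composition in the differences of these genes between states was not tested.

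**Figure D3:**
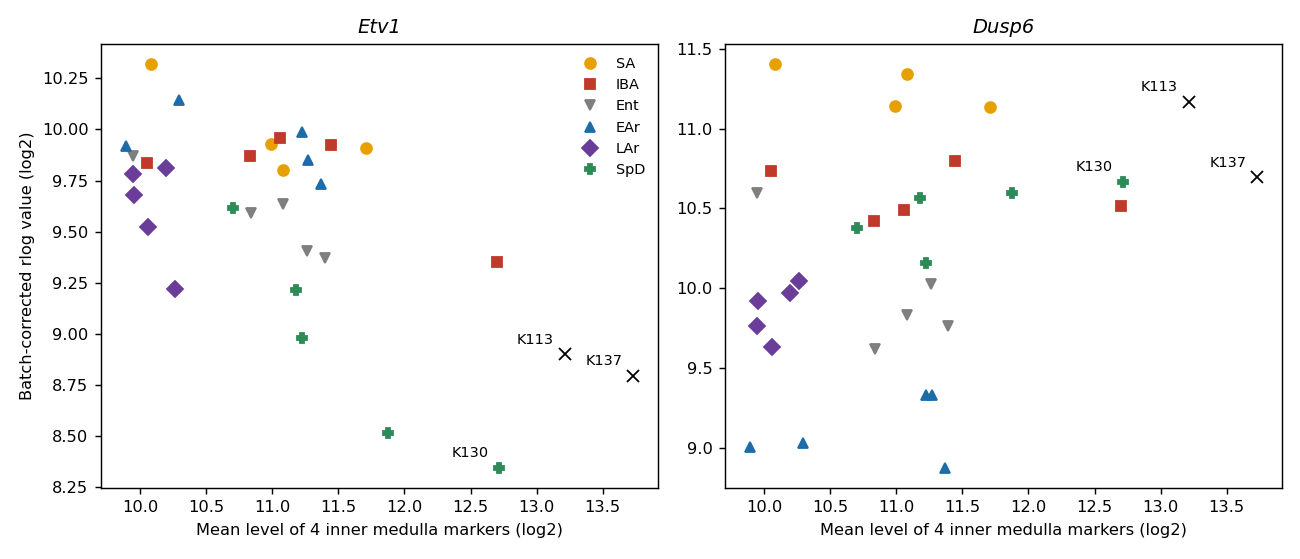
Batch-corrected rlog value (log2) of Etv1 and Dusp6 against the mean level of 4 inner medulla markers (log2), 1 point per animal, shaped and coloured by state, with K113 and K137 as crosses. Etv1 is low in K113, K137, and K130, which have marker levels of 12.72 or more, and Dusp6 in the same animals lies between 10.67 and 11.17.

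From EAr to LAr 2 were called (Dusp1 and Dusp6, both higher in LAr), beside 0.295% of all genes, and from LAr to IBA 2 were called (Dusp1 lower and Dusp6 higher in IBA), beside 1.43%. Between IBA and SA 0 of 9 were called by limma, beside 3.15% of all genes, and 3 had an unadjusted p under 0.05, beside 36.3%. From IBA to Ent 0 of 9 were called, beside 0.746% of all genes, and 3 had an unadjusted p under 0.05, beside 29.4%. Dusp1 and Dusp6 thus rose in the same step of rewarming and parted in the next, and their Pearson r over the 29 animals was -0.05.

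Groups that did not overlap were found for 4 of the 9 genes between SA and SpD (Dusp1, Dusp6, Spred1, and Etv1), beside 9.37% of all genes, and for 4 from EAr to LAr (Dusp1, Dusp5, Dusp6, and Spred1), beside 6.84%. There were 2 from LAr to IBA (Dusp1 and Dusp6), beside 13.7%, and 1 between IBA and SA (Dusp6), beside 18.8%. From IBA to Ent there were 0, beside 7.74%, and from IBA to SpD 0, beside 6.51%. These counts leave out K113 and K137. K137 (SA) lay within the SpD range in Dusp1 (11.08), Spred1 (9.35), and Etv1 (8.79), and within the IBA range in Dusp6 (10.70). K113 (LAr) lay above all IBA animals in Dusp6 (11.17). With these animals counted, SA and SpD overlap in Dusp1, Spred1, and Etv1, and Dusp6 overlaps between IBA and SA and between LAr and IBA. The median difference of the 9 genes was 0.28 from EAr to LAr and -0.25 from IBA to Ent, and the medians over all genes in these pairs were 0.00 and -0.01. In the other 5 pairs the medians of the 9 genes lay between -0.12 and 0.17.

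**Figure D4:**
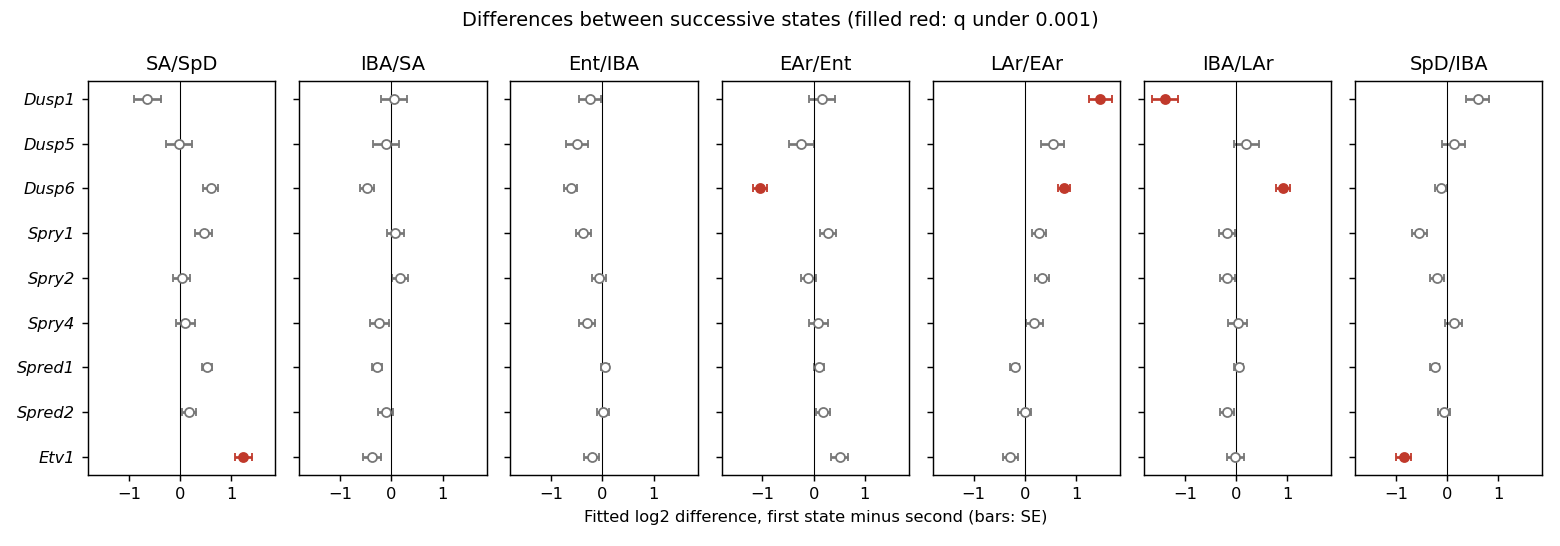
Fitted log2 difference of the 9 genes in the 7 successive pairs of states, first state minus second, with the SE as bars and filled red points at q under 0.001. The 7 filled points are Etv1 in SA/SpD and SpD/IBA, Dusp6 in EAr/Ent, and Dusp1 and Dusp6 in both LAr/EAr and IBA/LAr.

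The male minus female coefficients lay between 0.01 for Spry1 and 0.19 for Etv1, with 0 called for sex (beside 0.0233% of all genes) and 1 at an unadjusted p under 0.05 (beside 6.41%). No gene of the 9 was called for a state difference that depended on sex, at q under 0.05 (beside 0.00777%) or at an unadjusted p under 0.05 (beside 3.11%). The deposited values had the mean difference between the experiments already removed, so the term for experiment measures only what that removal left once state and sex are in the model, and not the effect of the library kit. The coefficients of experiment 2 minus experiment 1 were 0.31 for Dusp6 (SE 0.10, q = 0.594), -0.34 for Dusp1 (SE 0.19, q = 0.87), and -0.33 for Etv1 (SE 0.12, q = 0.77). By experiment 0 of 9 were called (beside 0.0155% of all genes), and 3 had an unadjusted p under 0.05 (beside 5.68%). These coefficients rest on IBA, Ent, and SpD, the states with animals in both experiments. The direction was the same in both experiments for 4 of the 9 genes from IBA to Ent and for 5 of the 9 from IBA to SpD. In experiment 2 these directions rest on 2 against 2 animals. The share of all genes with the same direction was not computed, so nothing is read from these 2 counts.

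The rest of the pathway was read from 10 lists written from general knowledge, but with earlier results of these data known. Their counts of called genes are therefore a description. Of the lists, 126 of 157 genes were in the table and 21 were called across the states. Upstream of ERK, 2 of 10 ligands (Hbegf and Pdgfb) and 0 of 17 receptor tyrosine kinases and co-receptors were called, where 9.34% of all genes were called. Further counts beside that share were 0 of 13 adaptors and Ras proteins, 0 of 7 Ras GTPase activators, and 1 of 15 Raf, MEK, and ERK kinases and scaffolds (Lamtor3). At q under 0.05 these lists held 7, 4, 6, 1, and 8, where 46.1% of all genes passed. Hbegf, a ligand of the EGF receptor, rose by 1.12 from EAr to LAr (q = 0.000972).

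Downstream of ERK, 10 of 18 transcription factors that ERK phosphorylates or induces were called across the states, beside 9.34% of all genes, and 5 of them rose from EAr to LAr with 0 falling, beside 0.295% of all genes called. These were Egr1 by 3.20 (q = 2.17e-07), Fos by 2.73 (q = 4.97e-10), Jun by 1.99 (q = 6.25e-09), Myc by 1.31 (q = 1.23e-05), and Junb by 1.19 (q = 0.000121). From LAr to IBA 6 of the 18 fell, beside 1.43% of all genes called, with differences of -2.28 for Egr1, -2.09 for Fos, -1.48 for Jun, -1.44 for Junb, -1.07 for Klf10, and -0.89 for Ier2 and q values from 2.8e-07 to 0.000708. Egr1, Fos, Jun, and Junb were called in both steps, rising where Dusp1 and Dusp6 rose and falling where Dusp1 fell and Dusp6 rose. The comparisons share the LAr animals. Myc was not called from LAr to IBA (-0.80, q = 0.00367). Some of the 18 that were called across the states were higher in IBA than in LAr, as Dusp6 was, without a call in that pair. These were Phlda1 by 0.83 (q = 0.00101), Ier3 by 0.56 (q = 0.0241), and Srf by 0.32 (q = 0.00602). The median difference of the 18 factors was 0.27 from EAr to LAr and 0.02 from LAr to IBA, beside 0.00 and -0.01 over all genes. From IBA to Ent Srf, the serum response factor that drives many immediate early genes, fell by 0.43 (q = 0.000411).

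The 14 other dual-specificity phosphatases were listed by family, whether or not they act on MAP kinases. Of these, 5 were called across the states (Dusp7, Dusp8, Dusp11, Dusp15, and Dusp28), beside 9.34% of all genes. That share also stands beside the single calls in the 3 lists that follow. Dusp15 was lower in IBA than in SA (difference -1.97, q = 0.000137), from 10.31 ± 0.29 to 8.57 ± 0.31. Dusp7, which like Dusp6 is a cytoplasmic ERK phosphatase, was highest in SA (9.20 ± 0.24) and lowest in EAr (8.18 ± 0.16) and LAr (8.16 ± 0.13), and it did not pass the test from EAr to LAr (q = 1), the step in which Dusp6 rose. Of 11 other feedback inhibitors of receptor tyrosine kinases 1 was called, Socs3, an inhibitor of cytokine receptor signalling, which rose by 1.33 from EAr to LAr (q = 9.79e-05). Of 7 kinases that ERK phosphorylates 1 was called, Mknk1, which fell by 0.38 from IBA to Ent (q = 0.000799). Of 14 kinases of the JNK and p38 branches, both substrates of Dusp1, 1 was called, Mapk9, the gene of JNK2, which rose by 0.45 from IBA to Ent (q = 0.000219) and was 0.46 lower in IBA than in LAr (coefficient -0.46, q = 0.000153).

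**Figure D5:**
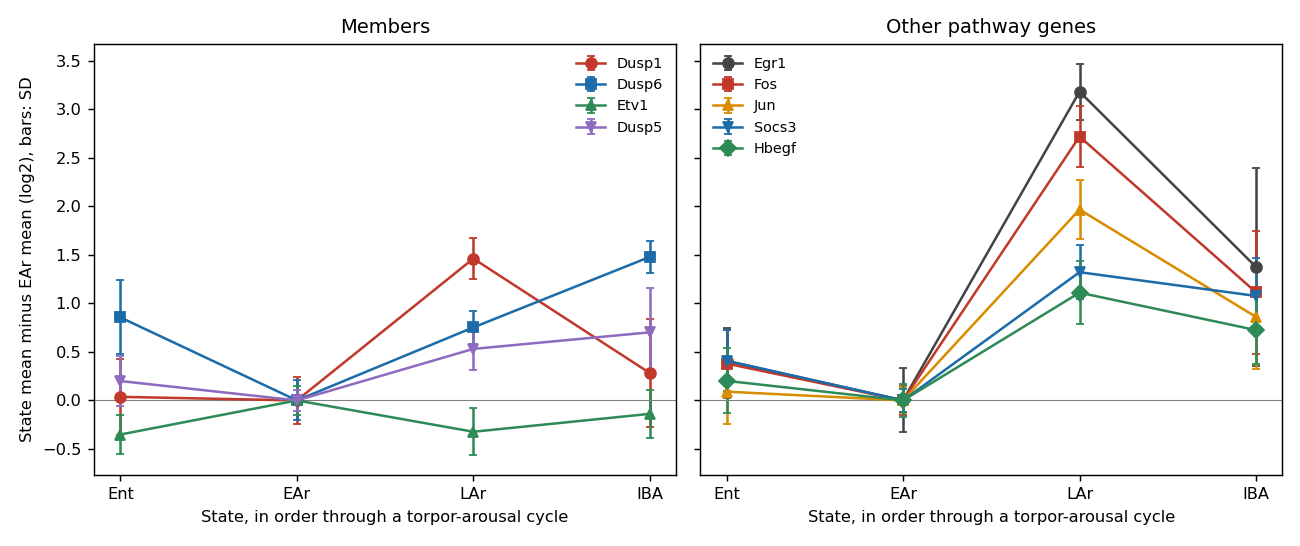
State mean minus the EAr mean (log2, bars are the SD of the state) through the torpor-arousal cycle, for Dusp1, Dusp6, Dusp5, and Etv1 and for 5 other genes of the pathway. These 5, Egr1, Fos, Jun, Socs3, and Hbegf, were all called higher in LAr than in EAr and do not stand for the whole pathway. Different animals stand at each state, so lines join group means. Dusp1 peaks in LAr like Egr1, Fos, and Jun, whereas Dusp6 is higher in IBA (10.59) than in LAr (9.87).

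Genes most like each called gene were found by Pearson r over the 29 animals, given as a description, since the animals share states. For Dusp6 they were Mex3c (r = 0.938), an RNA-binding ubiquitin ligase, Pdrg1 (r = 0.89), and Lins1 (r = 0.885). For Dusp1 they were Ddit3 (r = 0.844), the stress response factor CHOP, and Gadd45b (r = 0.825), a stress-induced regulator of p38 and JNK signalling. For Etv1 they were Pon3 (r = 0.873), Rab31 (r = 0.847), and Etv5 (r = 0.846), an ETS factor of the same subfamily. Among the 36 pairs of the 9 genes themselves, r was highest for Spred1 with Etv1 (0.80) and lowest for Dusp1 with Spred1 (-0.55). Dusp6 with Etv1 had r of -0.07 (0.03 within states). After state means were subtracted, Spry1 had r of 0.74 with both Spry4 and Spred2.

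K113 and K137 departed from their groups in most of the 9 genes. K113 was above all other LAr animals in 6 genes, with 11.17 for Dusp6 (others 9.63 to 10.04), 10.23 for Dusp5 (others 8.16 to 8.70), and 9.94 for Spry4 (others 8.65 to 8.85), and also in Dusp1, Spry1, and Spry2. It was below them in 3, Spred1, Spred2, and Etv1 (8.90, others 9.22 to 9.81). K137 was above all other SA animals in 2 genes, with 11.08 for Dusp1 (others 9.46 to 9.82) and 9.40 for Spry4, and below them in 4, with 10.70 for Dusp6 (others 11.13 to 11.41) and 8.79 for Etv1 (others 9.8 to 10.32), and also in Spred1 and Spred2. For Dusp6, K113 was thus nearest to the mean of SA and K137 to that of IBA. In both, 4 of 4 inner medulla markers were above, and 6 of 6 proximal tubule markers below, all other animals of the group, with a mean inner medulla level of 13.21 in K113 (others 9.95 to 10.26) and 13.73 in K137 (others 10.08 to 11.71). K130, kept among the SpD animals, had 3 of 4 inner medulla markers above and 5 of 6 proximal tubule markers below its group. K130 was above the other SpD animals in Dusp1 and Dusp6 and below them in Spry1, Spred2, and Etv1. Etv1, Spred2, and Dusp1 thus departed in the same direction in K113, K137, and K130, and whether tissue composition accounts for that was not tested.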

How the data were processed

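The authors prepared libraries from polyadenylated RNA. Per the labels and methods, they used cutadapt to trim reads, HISAT2 to take out mitochondrial reads, and Salmon to assign the others to HiC_Itri_2 transcripts, and the authors then summed these to genes, applied a minimum on rlog values within groups, and obtained rlog values from DESeq2. Tool versions are not given in the sources used here. The deposited values are on the log2 scale, after the authors took out the effect of experiment with limma, and rlog shrinks differences of genes with few reads. That step gave both experiments equal means, although experiment 1 held only 3 of the 6 states. The authors tested counts with DESeq2. Those counts are not used here, so limma 3.58.1 (R 4.3.3) was run on the deposited values of all 12863 genes in 29 animals. The model had terms for state, sex, and experiment, its variances were moderated by empirical Bayes with a trend on the mean, and p-values were Benjamini-Hochberg adjusted separately for each comparison. There was an F test over the states, a contrast for each of 7 pairs of states, and an F test of state by sex, all two-sided.

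The members, the 10 pathway lists, the markers, and the tests were chosen with earlier results of these data known. Every member in the table is named. In each list, up to 4 genes called across the states by lowest q and up to 3 others called in a pair of states are named (for the transcription factors Junb, Klf10, and Ier2), and for likeness the 3 genes with a symbol and the highest r, of which 1 is not reported here. Dusp8, Srf, Phlda1, and Ier3 were named beyond this rule after their values were seen. All 9 symbols matched the RefSeq annotation of another assembly, so no position or sequence is given. Alternatives to the fit were the inclusion of K113 and K137, a model without experiment, experiment 2 alone, no trend, animal weights, a minimum gene mean of 8, centring of animals to a common median, q under 0.01, and each of 29 animals left out. The model was tested on simulated data. Tables and figures were made with pandas 2.3.3 and matplotlib 3.10.9 in Python 3.11.15.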

Additional observations from a re-analysis of the deposited data

Results flagged for a closer look

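Of 54 sets tested, each 1 gene in the 4 or 5 animals of 1 state, 3 held an animal whose gap to the nearest other animal was a larger share of the range than Dixon's critical value, and chance gives about 1 in 20. In IBA, animal K104 had 9.37 for Spred1 (others 9.64 to 9.75) and 9.35 for Etv1 (others 9.84 to 9.96). This animal also had the highest inner medulla level of its group, 12.70. In SpD, animal K9, number 77, had 9.69 for Spred1 (others 9.25 to 9.35).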

How the results depend on the processing

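The number of the 9 genes called was 3 across the states, 1 for SA/SpD, 0 for IBA/SA, 0 for Ent/IBA, 1 for EAr/Ent, 2 for LAr/EAr, 2 for IBA/LAr, and 1 for SpD/IBA. With all 31 animals it was 0 for SA/SpD, EAr/Ent, LAr/EAr, IBA/LAr, and SpD/IBA. With no term for experiment it was 0 for SA/SpD, EAr/Ent, IBA/LAr, and SpD/IBA and 1 for LAr/EAr. In experiment 2 only it was 0 for EAr/Ent, LAr/EAr, IBA/LAr, and SpD/IBA. With animal weights it was 0 for SA/SpD and 1 for Ent/IBA. At q under 0.01 it was 5 across the states, 2 for SA/SpD, and 1 for Ent/IBA. Without 1 animal at a time it ranged from 0 to 1 for SA/SpD, Ent/IBA, EAr/Ent, and SpD/IBA, from 0 to 2 for LAr/EAr, and from 1 to 2 for IBA/LAr. A minimum mean of 8, median centring, and no trend left all 8 counts as they were. No share of all genes stands beside the counts under these alternatives, so they describe the 9 genes alone and nothing further is read from them. The cause of these changes was not tested. The left-out and experiment 2 fits also hold fewer animals. None of the 7 called differences changed direction in any of its 36 alternatives, and q was at least 0.01 in 1 alternative for Dusp6 EAr/Ent, 1 for Dusp6 IBA/LAr, 3 for Etv1 SA/SpD, and 1 for Etv1 SpD/IBA. No paired analysis was possible because each animal has its own number and stands in 1 state. Depth is unknown, so no counting error stands beside any value, and 4 or 5 animals in a state limit the precision.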
